A study of Homo sapiens with 18 samples.

Results

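The genes described here are 40 genes of the cell division cycle, out of 24394 genes in the count tables of an RNA-seq study of K562 cells. They comprise 18 genes that act in S phase or at its start and 22 genes that act in mitosis (M phase). The genes were listed by name, by a rule that uses no measured value, but with earlier results of these data known. K562 is a human leukaemia cell line with erythroid features that grows in suspension, lacks functional p53 and divides continuously. Of the 40 genes, 39 passed the filter on low counts. The exception was UBE2C, the ubiquitin-conjugating enzyme of the anaphase-promoting complex, with 0 to 12 counts in every library over its 4 transcripts. How the deposited counting treated these transcripts is not stated, so the low counts do not show that K562 lacks UBE2C RNA. UBE2C is not described further.

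The study has 18 libraries in 6 groups of 3, and its design asks which genes change at the target of a repressor and elsewhere. KRAB_CR4 and KRAB_CR10 are cells transduced with lentivirus for dCas9-KRAB, a nuclease-dead Cas9 joined to the KRAB repressor domain, and for gRNA CR4 or CR10. Both gRNAs target HS2, an enhancer in the locus control region of the beta-globin genes on chromosome 11, where none of the 40 genes lies. dCas9_CR4 and dCas9_CR10 carry dCas9 without KRAB and the same gRNAs, KRAB_no_gRNA carries dCas9-KRAB without a gRNA, and no_lentivirus is K562 without transduction. Transduction used 4 µg/ml polybrene, and 1 µg/ml puromycin was applied to the transduced cells from about 96 h. The labels do not say whether no_lentivirus cells received polybrene or puromycin, so lentivirus, polybrene and selection cannot be told apart. They do not give the promoter that drives dCas9, nor whether the transduced cells are clones or separate cultures, so p-values measure only the spread between these libraries, which may be technical.

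The library totals ranged from 22805964 to 34032962 counts. The target locus was lower in the libraries labelled as repressed: HBE1, the embryonic beta-like globin, averaged 61.6 ± 6.20 CPM (counts scaled to TMM library size) in KRAB_CR4 and 85.0 ± 10.96 CPM in KRAB_CR10, against 457 ± 17.8 CPM in KRAB_no_gRNA (SD, n = 3 each; edgeR adjusted p = 2.36e-09 and 3e-08). All 10 K562 markers were detected in every group, and of 17 markers of lymphocytes, monocytes, fibroblasts and epithelium 11 were under 1 CPM in each group, 3 of them at 0. The other-cell markers summed to between 132 and 184 CPM per library, most of it EPCAM. The share of ribosomal RNA was 4.02% for library 2 of KRAB_CR4, 3.52% for library 1 of KRAB_CR10 and at most 1.496% elsewhere. Libraries stood apart in 2 ways that touch the results below: the lentiviral libraries numbered 3 differed together from those numbered 1 and 2 in all 5 lentiviral groups, and no_lentivirus library 2 differed from the other untransduced libraries. The counts of members that rest on them are given with and without them. In these bulk samples a lower level of a cycle gene can come from fewer cells in that phase or from less RNA per cell, which cannot be told apart.

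Cell cycle genes are switched on in waves. E2F factors, held back by RB proteins until late in the first gap phase, activate genes for DNA replication, while the DREAM and MuvB complexes with MYB and FOXM1 control genes for mitosis through a promoter element called the CHR, often beside CCAAT boxes bound by NF-Y. The products of the first wave license and copy the DNA. Those of the second condense chromosomes, build the spindle and complete division, and they are then degraded through the anaphase-promoting complex.

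The promoters of these genes show both elements, and some are printed here so that the letters of each can be seen. RefSeq promoters (GRCh38.p14, from 250 bases before to 50 bases after the start) were matched for 33 of the 40 genes, and those of MCM4, MCM5, CCNE2, AURKA, BIRC5, TPX2 and UBE2C were not matched. An E2F site (TTTGGCGC, TTTCCCGC, TTTGCCGC or TTTCGCGC) occurred in 12 of 15 S phase promoters and 3 of 18 M phase promoters, and in 3.33% of all 27305 promoters in the table. A CHR (TTTGAA or TTCGAA) occurred in 1 of 15 S phase promoters and 12 of 18 M phase promoters, and in 16.6% of all. A CCAAT box (CCAAT) occurred in 9 of 15 and 15 of 18, and in 35.7% of all. Both strands were searched and matches may overlap.

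The 100 bases upstream of the start are shown for 3 S phase genes and 3 M phase genes, 5′ to 3′ on the gene's strand, with every match to the 3 motifs in capitals. PCNA, the sliding clamp of the polymerases (chr20:5126623-5126722, minus strand), has CCAAT boxes at -79 and -25 around an E2F site at -59, positions being those of the first base counted back from the start. MCM6, a subunit of the replicative helicase (chr2:135876444-135876543, minus strand), has a pair of E2F sites at -90 and -86 that overlap, and CCAAT boxes at -100 and -58. UHRF1, which carries DNA methylation through replication (chr19:4909401-4909500, plus strand), has an E2F site at -14 and a CCAAT box at -86. MKI67, the coat protein of mitotic chromosomes (chr10:128126424-128126523, minus strand), has CHR matches at -47 and -29, with the CHR at -29 sharing a base with a CCAAT box at -24, and another CCAAT box at -98. CCNB2, a mitotic cyclin (chr15:59105046-59105145, plus strand), and PLK1, a mitotic kinase (chr16:23678789-23678888, plus strand), also have a CHR at -29.
PCNA: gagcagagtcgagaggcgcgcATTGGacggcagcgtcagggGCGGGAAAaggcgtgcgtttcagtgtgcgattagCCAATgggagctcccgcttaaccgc
MCM6: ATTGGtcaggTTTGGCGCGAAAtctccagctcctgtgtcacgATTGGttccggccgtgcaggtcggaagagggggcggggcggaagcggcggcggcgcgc
UHRF1: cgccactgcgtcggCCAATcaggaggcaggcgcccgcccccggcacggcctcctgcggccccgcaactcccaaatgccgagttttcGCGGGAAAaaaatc
MKI67: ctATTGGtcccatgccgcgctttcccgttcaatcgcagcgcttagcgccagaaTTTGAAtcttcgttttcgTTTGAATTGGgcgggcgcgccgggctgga
CCNB2: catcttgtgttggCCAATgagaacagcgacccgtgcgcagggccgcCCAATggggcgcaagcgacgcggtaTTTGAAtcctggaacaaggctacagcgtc
PLK1: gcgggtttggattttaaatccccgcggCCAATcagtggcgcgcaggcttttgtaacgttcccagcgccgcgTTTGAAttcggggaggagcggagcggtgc
These 3 M phase promoters were picked for a CHR at -29: of the 12 with a CHR the other 9 have it elsewhere, starting between -194 and 41. None of the 3 windows holds a match to the E2F letters. A match is a description of letters and not evidence of binding in K562.

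All 39 genes were well expressed. On a scale of mean CPM per kb of transcript over the 18 libraries, MCM7, a helicase subunit, was highest at 243 and CCNE2, the second E-type cyclin, lowest at 10.7. PLK1 followed MCM7 at 158, TYMS (thymidylate synthase) at 145 and MCM4, another helicase subunit, at 142. At the other end stood E2F2 at 10.9, the phosphatase CDC25C at 11.6 and the kinetochore motor CENPE at 12.1. Together the members took between 0.817% and 0.911% of the counts of each library. The largest ratio of the highest to the lowest library was that of UHRF1 at 4.24, followed by MKI67 at 3.06 and CDC25C at 2.88, and the smallest that of the spindle assembly factor TPX2 at 1.23. For UHRF1, MKI67 and CDC25C the extreme library was no_lentivirus library 2. The preparation does not mark strand, so reads of TYMS and of its antisense neighbour ENOSF1 cannot be told apart.

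**Figure D1:**
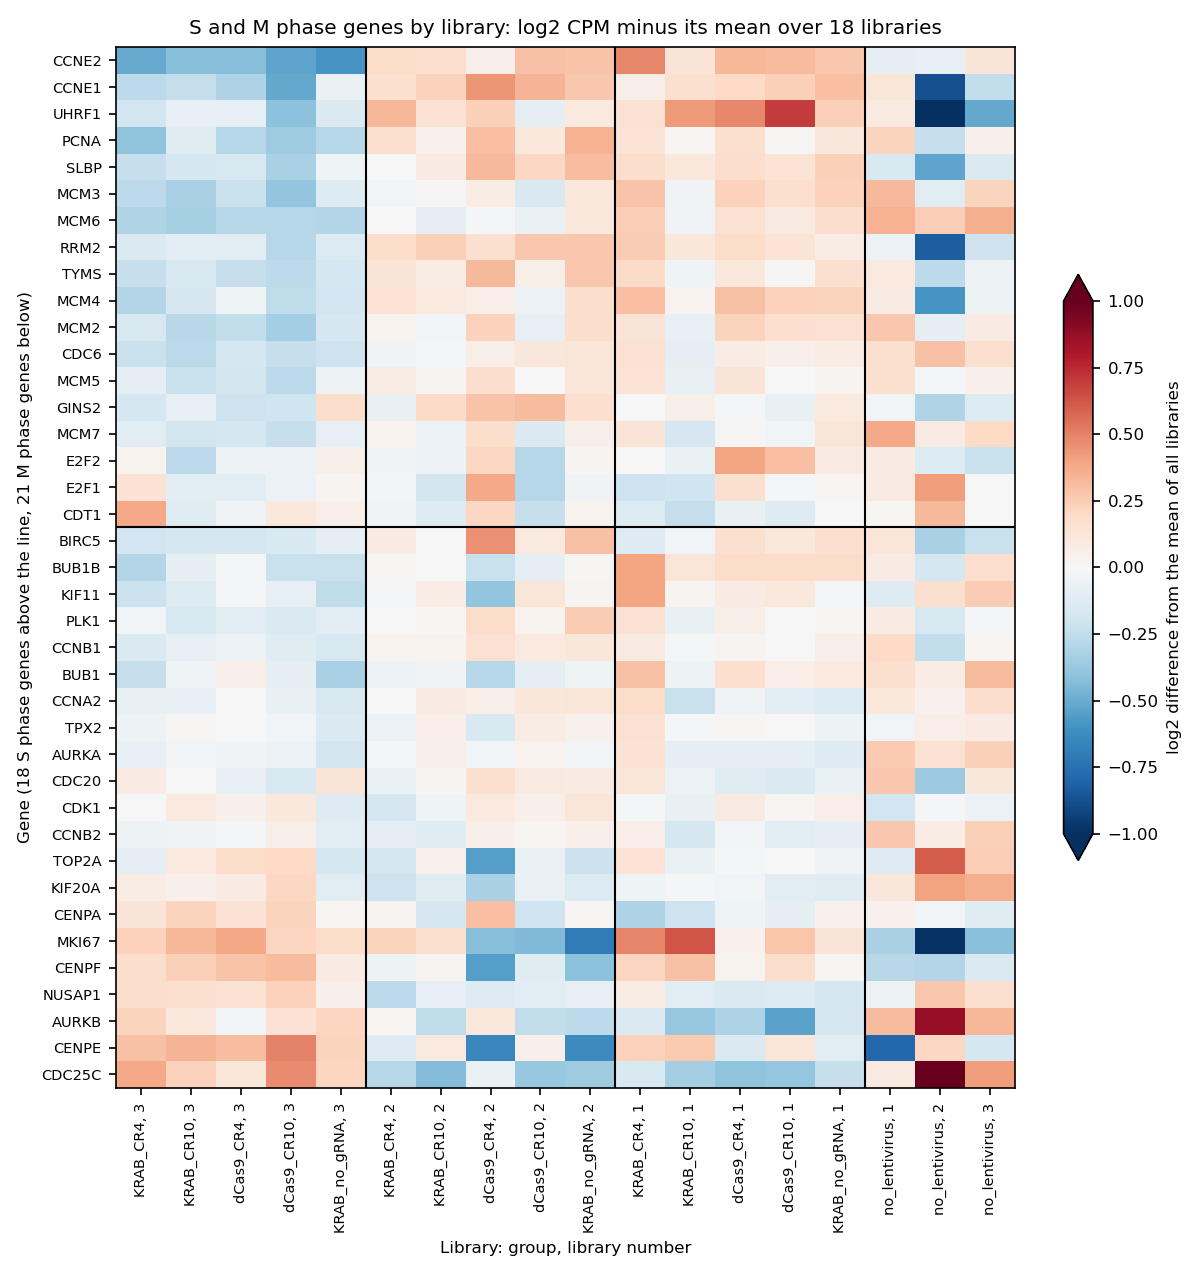
Level of the 39 measured genes (rows, S phase above the line and M phase below) in each of 18 libraries (columns, the lentiviral libraries numbered 3, then 2, then 1, then no_lentivirus), as log2 CPM minus the gene's mean over all libraries; colours stop at -1 and 1. Most S phase genes are blue in the 5 lentiviral libraries numbered 3, and no_lentivirus library 2 stands out, with RRM2 at 199 CPM and CDC25C at 48.7 CPM.

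No change of these genes was detectable where dCas9-KRAB was targeted to HS2. In KRAB_CR4 against KRAB_no_gRNA, 0 of 39 genes passed (edgeR quasi-likelihood test, Benjamini-Hochberg adjusted over all genes, threshold 0.05), and 0.0204% of the 14713 genes tested did. The counts were also 0 of 39 in KRAB_CR10 against KRAB_no_gRNA (0.0204% of all genes), KRAB_CR4 against dCas9_CR4 (0.0204%) and KRAB_CR10 against dCas9_CR10 (0.0204%). For dCas9_CR4 and dCas9_CR10 against KRAB_no_gRNA they were 0 of 39 as well, with 0% of all genes. In each of these 6 comparisons 0 members had an unadjusted p under 0.05, and DESeq2 also called 0. The share of all genes with such a p was 1.71%, 1.49%, 0.999% and 0.496% in the 4 comparisons with KRAB, in the order above, 0.449% for dCas9_CR4 and 1.19% for dCas9_CR10. The median log2 fold change of the S phase genes lay between -0.13 and -0.00 over the 6 comparisons and that of the M phase genes between -0.02 and 0.08, where the medians of all genes lay between -0.02 and 0.00. When 1 library was left out, the S phase median ranged from -0.21 to 0.10 over the 6 comparisons, and in 4 of the 6 it took both signs. It stayed negative in KRAB_CR10 against KRAB_no_gRNA (-0.2072 to -0.0649) and in dCas9_CR10 against KRAB_no_gRNA (-0.1936 to -0.0047). In each of these, 16 of 18 S phase genes had a log2 fold change below 0. Both share the KRAB_no_gRNA libraries as reference, and the cause of this lean was not tested. With lentiviral libraries numbered 1 and 2 only, the counts were again 0 in all 6. The reported fit has no term for the library number, so the spread behind its p-values includes differences between numbers. With the number as a block in the lentiviral libraries the counts were also 0, where between 0 and 8 of 14599 genes were called.

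MKI67 had the smallest unadjusted p of the members in 3 of the 4 comparisons with KRAB, and its edgeR adjusted p was 0.999 or 1 in each. It was at 437, 363 and 365 CPM in KRAB_CR4 and at 480, 348 and 392 CPM in KRAB_CR10 (libraries 1, 2 and 3), against 339, 191 and 352 CPM in KRAB_no_gRNA and 376, 229 and 361 CPM in dCas9_CR10. KRAB_CR4 and KRAB_no_gRNA do not overlap, while KRAB_CR10 overlaps with both of its comparison groups, and library 2 is the lowest of each control group. Its log2 fold change was 0.40 ± 0.25 (SE) in KRAB_CR4 against KRAB_no_gRNA, 0.47 ± 0.25 in KRAB_CR10 against KRAB_no_gRNA and 0.34 ± 0.25 in KRAB_CR10 against dCas9_CR10. The 95% interval of the KRAB_CR10 value against KRAB_no_gRNA ran from -0.09 to 1.02, which is wide. It comes from few libraries and a fit in which the library number is not a term.

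The other members with the smallest p were of both phases, and the edgeR adjusted p of every member was 0.999 or 1 in these comparisons. GINS2, a subunit of the GINS complex of the helicase, averaged 52.2 ± 3.20 CPM in KRAB_CR4 and 61.0 ± 1.81 CPM in KRAB_no_gRNA (log2 fold change -0.22 ± 0.15). AURKA, a centrosome kinase, averaged 162 ± 13.4 CPM in KRAB_CR4 and 148 ± 8.18 CPM in KRAB_no_gRNA (0.13 ± 0.10). CENPF, a kinetochore protein, averaged 318 ± 30.7 CPM in KRAB_CR10 and 262 ± 45.5 CPM in KRAB_no_gRNA (0.28 ± 0.18). GINS2 is lower in KRAB_CR4 without overlap, while AURKA and CENPF overlap, and none of the 3 differences exceeded the spread between libraries by the test. For MCM7 the means were 651 ± 30.5 CPM in KRAB_CR10 and 731 ± 51.8 CPM in KRAB_no_gRNA (-0.17 ± 0.12). Against dCas9 with the same gRNA, the inhibitor of apoptosis and chromosomal passenger BIRC5 (-0.24 ± 0.16), the mitotic kinase CDK1 (-0.14 ± 0.10) and E2F2 (-0.19 ± 0.15) had the smallest p in KRAB_CR4. Beside MKI67, CCNB2 (-0.10 ± 0.10) and E2F2 (-0.13 ± 0.15) did so in KRAB_CR10. Without dCas9_CR10 library 1 the E2F2 value was 0.03.

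The gRNAs with dCas9 alone also gave 0 calls. Their difference from the KRAB groups is the comparison of KRAB with dCas9 at the same gRNA given above, with 0 of 39 members called for each gRNA. E2F1, the activator of S phase genes, had a log2 fold change of 0.16 ± 0.15 in dCas9_CR4 against KRAB_no_gRNA, E2F2 one of 0.13 ± 0.15 and GINS2 one of -0.11 ± 0.15. In dCas9_CR10 against KRAB_no_gRNA, MCM7 was at -0.16 ± 0.12, CENPE at 0.37 ± 0.26 and CENPF at 0.22 ± 0.18. Few members separated without overlap. In KRAB_CR4 against KRAB_no_gRNA 1 was higher (MKI67) and 1 lower (GINS2), where 3.04% of all genes were higher and 3.76% lower. In KRAB_CR10 against KRAB_no_gRNA 3 were lower (CDT1, E2F1 and E2F2) and 0 higher, where 4.74% were lower and 4.13% higher. In KRAB_CR4 against dCas9_CR4 CDK1 was lower (2.15% of all genes lower, 1.69% higher), in dCas9_CR10 against KRAB_no_gRNA KIF20A was higher (3.12% higher, 2.72% lower), and 0 members separated in KRAB_CR10 against dCas9_CR10 (1.54% higher, 2.09% lower) or in dCas9_CR4 against KRAB_no_gRNA (1.5% higher, 1.13% lower). These genes were chosen after their values were seen. The difference between the KRAB effects with CR4 and with CR10 was tested as an interaction against dCas9. By edgeR 0 of 39 members passed, and so did 0 of all genes. An unadjusted p under 0.05 was found for 0 members. The smallest p was that of KIF11, the motor that pushes spindle poles apart (difference 0.23 on the log2 scale). These comparisons share groups, and their values are not independent of each other.

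**Figure D2:**
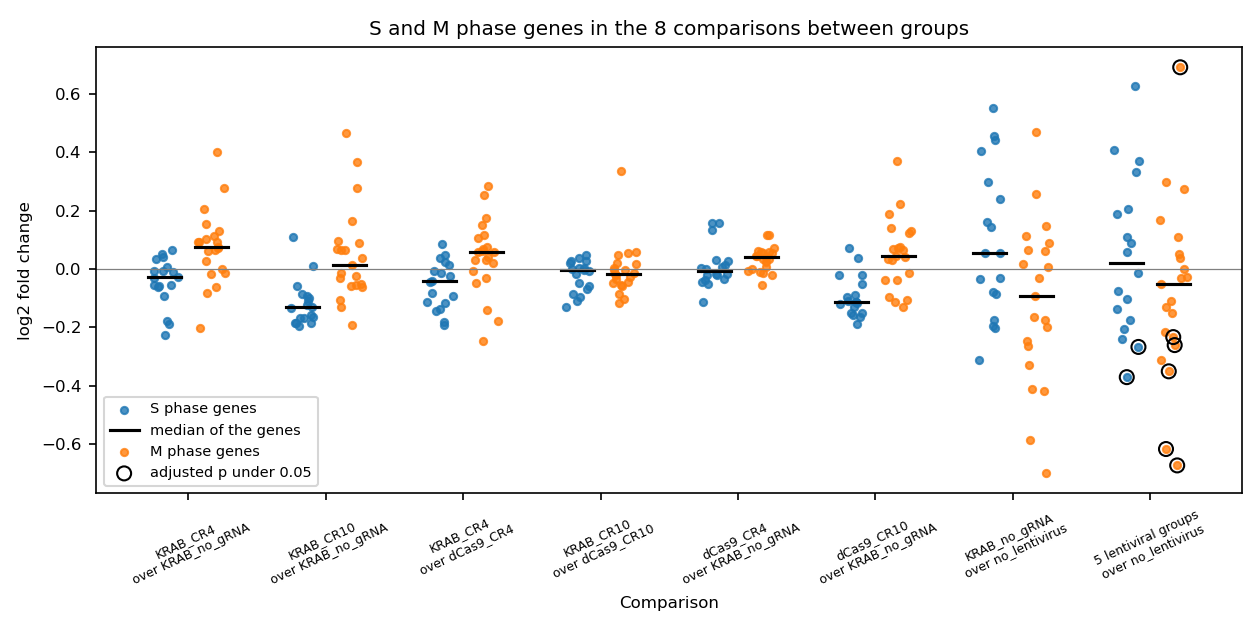
Log2 fold changes of 18 S phase genes (blue) and 21 M phase genes (orange) in the 8 comparisons between groups, 1 point a gene, spread sideways for legibility, with the median as a bar and a ring where the adjusted p is under 0.05. Rings appear in the comparison of the 5 lentiviral groups with no_lentivirus, for 2 S phase and 6 M phase genes, and in no other.

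Transduced cells differed from untransduced cells in 8 of these genes, a share near that of all genes, and 0 of the 8 stayed called without 1 of the untransduced libraries, library 2. In the mean of the 5 lentiviral groups against no_lentivirus, 8 of 39 members passed (edgeR quasi-likelihood, adjusted p under 0.05), where 18.7% of all 14713 genes did. Of the M phase genes 5 fell and 1 rose, and of the S phase genes 2 fell, where 11.2% of all genes fell and 7.55% rose. The median log2 fold change was -0.05 for M phase genes, 0.02 for S phase genes and 0.01 for all genes.

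The Aurora kinases were lower in the transduced cells. AURKB, which corrects attachments of chromosomes to the spindle, was at 43.6, 57.1 and 73.5 CPM in the 15 lentiviral libraries (lowest, median, highest), against 78.7, 115 and 79.3 CPM in no_lentivirus libraries 1, 2 and 3. AURKA was at 140.6, 155.4 and 176.5 CPM in the lentiviral libraries, against 191.2, 177.0 and 188.4 CPM in no_lentivirus. For both genes every untransduced library was above every transduced one, as was the case in this direction for 4.24% of all genes and for 4 members in all, with CCNB2 and CDC6. The log2 fold change of AURKB was -0.62 ± 0.15 (edgeR adjusted p = 0.0106) and that of AURKA -0.26 ± 0.08 (edgeR adjusted p = 0.0246). KIF20A, a motor of cytokinesis, fell to a median of 86.9 CPM (72.6 to 105) in the lentiviral libraries, against 98.3, 120 and 117 CPM in no_lentivirus (-0.35 ± 0.10, edgeR adjusted p = 0.0223). The groups overlap through dCas9_CR10 library 3, the highest of the lentiviral libraries.

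CDC25C, which activates CDK1, was at 16.9, 19.5 and 31.8 CPM in the lentiviral libraries (lowest, median, highest), against 24.5, 48.7 and 30.6 CPM in no_lentivirus libraries 1, 2 and 3 (-0.67 ± 0.21, edgeR adjusted p = 0.0359). CCNB2 was at 110, 121 and 129 CPM in the lentiviral libraries, against 149, 130 and 146 CPM in no_lentivirus (-0.23 ± 0.08, edgeR adjusted p = 0.0437). MKI67 was the member that rose, at 191, 361 and 480 CPM in the lentiviral libraries, against 248.8, 157 and 232 CPM in no_lentivirus (0.69 ± 0.21, edgeR adjusted p = 0.0291). CCNB2 separates without overlap, while CDC25C and MKI67 overlap, and for both of these the most extreme untransduced library is library 2. The helicase subunits MCM6 (-0.37 ± 0.12, edgeR adjusted p = 0.0418) and MCM7 (-0.27 ± 0.09, edgeR adjusted p = 0.0426) also fell. Their means were 295 ± 39.9 CPM and 697 ± 61.8 CPM in the lentiviral libraries (n = 15), against 381 ± 15.5 CPM and 837 ± 87.0 CPM in no_lentivirus (SD, n = 3), and both overlap. Lentiviral libraries of the same number vary together, and this fit has no term for the number. The 15 libraries are therefore not independent replicates.

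These calls depended on which untransduced libraries were in the fit. For AURKB, CDC25C, KIF20A and MKI67, no_lentivirus library 2 was the untransduced library farthest from the lentiviral ones. For AURKA, CCNB2, MCM6 and MCM7 it was the nearest. Without no_lentivirus library 2, 0 of the 8 stayed called and AURKB had a log2 fold change of -0.41 (edgeR adjusted p = 0.187). In that fit 346 of 14878 genes were called (2.33%), against 2755 of 14713 in the fit with it. Without no_lentivirus library 3, 1 stayed, AURKB, and 1373 of 14930 genes were called. The count was 4 without KRAB_CR4 library 2 (2266 of 15020 genes called), 5 without KRAB_CR10 library 1 (2245 of 15013) and 1 without both (1768 of 14990). These are the libraries richest in ribosomal RNA. With lentiviral libraries numbered 1 and 2 only it was 11, where 4439 of 14762 genes were called. The S phase genes then leaned the other way, with 4 higher and 1 lower and a median log2 fold change of 0.11. Of the M phase genes 5 were lower and 1 higher in that fit. In no_lentivirus library 2 several S phase genes were low, such as RRM2 (ribonucleotide reductase) at 199 CPM against 339 and 305 CPM in libraries 1 and 3, and CCNE1 (cyclin E1) at 26.4 CPM against 52.9 and 41.0 CPM. In the same library TOP2A, which untangles chromosomes, was at 784 CPM against 472 and 613 CPM. The markers of other cells summed to between 149 and 160 CPM in no_lentivirus, within the range of the lentiviral groups, and the marker LYZ was lower in the lentiviral groups (-0.89, edgeR adjusted p = 0.0303). Of 10 K562 markers 4 were lower and 0 higher, the globins HBE1, HBG1 and HBG2 and the erythroid factor GATA1 (-0.39, edgeR adjusted p = 0.00545), and the same 4 were lower without no_lentivirus library 2. In 2 of the 5 lentiviral groups the globin enhancer is the target of dCas9-KRAB. In KRAB_no_gRNA against no_lentivirus HBG1 was at 0.11 and HBG2 at 0.13 (edgeR adjusted p = 0.696 and 0.639), HBE1 at -0.40 (edgeR adjusted p = 0.0694) and GATA1 at -0.46 (edgeR adjusted p = 0.0287). The K562 markers summed to between 2280 and 4500 CPM in the lentiviral groups and between 3100 and 4610 CPM in no_lentivirus. Their part in the result was not tested.

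KRAB_no_gRNA alone against no_lentivirus gave 0 of 39 members, where 6.63% of all genes passed, and 8 members had an unadjusted p under 0.05, where 26.3% of all genes did. AURKA was nearest, at 146, 157 and 141 CPM in KRAB_no_gRNA, against 191, 177 and 188 CPM in no_lentivirus (-0.33 ± 0.10, edgeR adjusted p = 0.0534). KIF20A at 83.6, 82.8 and 84.2 CPM in KRAB_no_gRNA, against 98.3, 120 and 117 CPM in no_lentivirus, followed (-0.42 ± 0.13, edgeR adjusted p = 0.0604), then AURKB (-0.59 ± 0.20, edgeR adjusted p = 0.0834). The groups do not overlap for any of the 3 genes. In this direction 6 of 39 members separated, where 13.4% of all genes did, and in the other 2 members and 13.1% of all genes. The calls depend on the fit: DESeq2 called 4 members, AURKA, AURKB, KIF20A and CCNB2, and edgeR without no_lentivirus library 1 called 5, AURKB, CDC25C, KIF20A, TOP2A and UHRF1. The number of all genes called was 976 in the reported fit, 0 in a fit of these 2 groups alone, 27 without KRAB_no_gRNA library 1, 41 without no_lentivirus library 2 and 2447 without no_lentivirus library 1. With DESeq2 it was 2008 of 14713.

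Other genes of division, from lists drawn up by role, gave these counts in the lentiviral groups against no_lentivirus, where 11.2% of all genes fell and 7.55% rose (12.4% and 8.74% of those at 10 CPM or more). Most of the shares are near or below that background, and most of the calls were lost without no_lentivirus library 2. Of 30 spindle, kinetochore and checkpoint genes 4 fell and 0 rose, among them the centrosome kinase NEK2 (-0.37) and the kinetochore protein NDC80 (-0.52). Of 17 genes of condensin, cytokinesis and chromosome structure 4 fell, led by the cytokinesis factors RACGAP1 (-0.45) and PRC1 (-0.42). Of 15 nucleotide supply genes 5 fell, with RRM1, the large subunit of ribonucleotide reductase, at -0.37. Of 35 replication genes 3 fell, CDC45 (-0.43), ORC1 (-0.43) and PRIM1 (-0.42), and GINS4 rose (0.29). Among 23 cyclins, kinases and inhibitors CDKN1A, the inhibitor p21, fell to 13.5 ± 2.56 CPM in the lentiviral libraries, against 26.8 ± 6.53 CPM in no_lentivirus (-0.996, edgeR adjusted p = 0.00129), CCNH fell by 0.40 and PKMYT1, which inhibits CDK1, rose by 0.48. Of 17 RB, E2F and DREAM regulators 0 passed by edgeR, and 2 had an unadjusted p under 0.05. Without no_lentivirus library 2, 3 of the genes in these lists were called, all lower: RACGAP1 (-0.45, edgeR adjusted p = 0.0333), CDC45 (-0.39, edgeR adjusted p = 0.0473) and CDKN1A (-0.79, edgeR adjusted p = 0.0324). In that fit 2.33% of all genes were called. Among the genes that lost their call, RRM1 kept its size at -0.39, while NDC80 was at -0.27 and PRIM1 at -0.19.

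The clearest pattern among these genes ran along the library number. In the 5 lentiviral libraries numbered 3 against the 10 numbered 1 and 2, with the group held constant, 28 of 39 members passed (edgeR quasi-likelihood, adjusted p under 0.05), where 53.8% of all 14599 genes did. The S phase genes leaned to lower levels, while the M phase genes included both directions. Of 18 S phase genes 15 were lower in number 3 and 1 higher, and of 21 M phase genes 8 were higher and 4 lower, where 25.9% of all genes were lower and 27.9% higher. No test set the lists against other genes. Among the 9304 genes with a mean of at least 10 CPM, as all these members have, 36.7% were lower and 22.3% higher. The median log2 fold change was -0.32 for S phase genes, 0.03 for M phase genes and 0.03 for all genes. It was -0.07 for the 8895 genes at 10 CPM or more with a known transcript length. The labels do not say what a number stands for, so no handling step can be named.

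**Figure D3:**
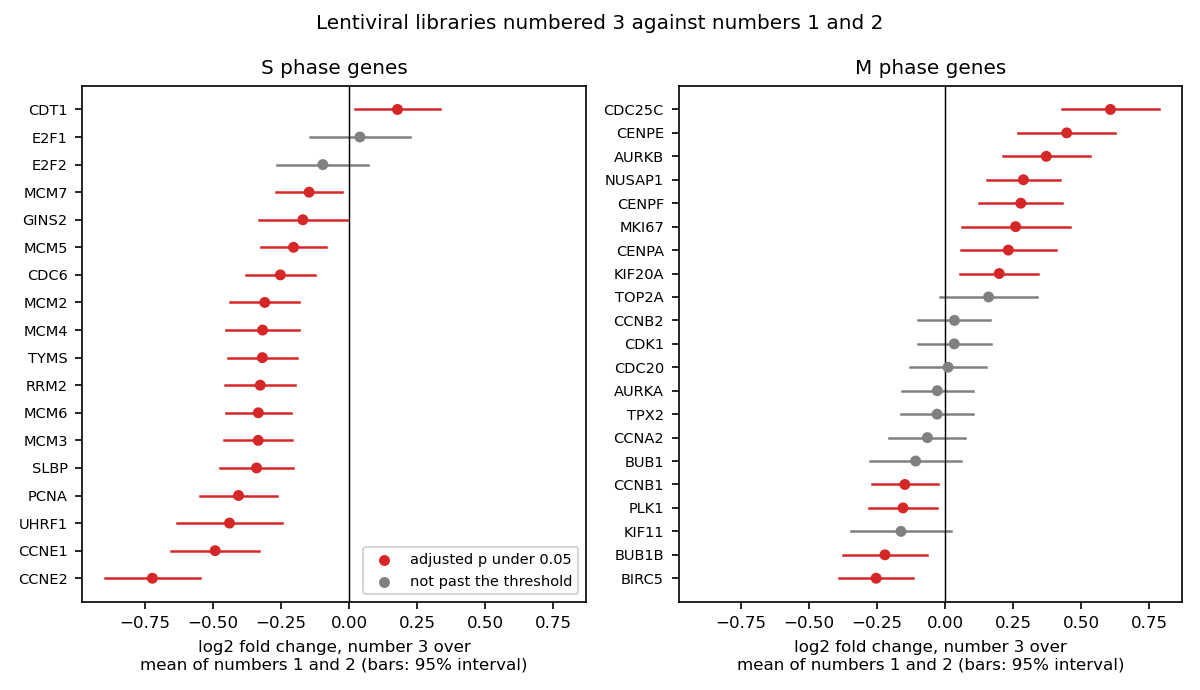
Log2 fold change of each gene in the 5 lentiviral libraries numbered 3 over the mean of the 10 numbered 1 and 2, with its 95% interval (edgeR, group as a covariate), S phase genes on the left and M phase genes on the right. The S phase genes lie left of 0 except CDT1 and E2F1, from CCNE2 at -0.72, and the M phase genes spread from BIRC5 at -0.25 to CDC25C at 0.61.

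The E-type cyclins, which drive cells into S phase with CDK2, had the largest differences of the S phase genes. CCNE2 was at 20.05, 21.2, 21.2, 19.8 and 19.0 CPM in library 3 of KRAB_CR4, KRAB_CR10, dCas9_CR4, dCas9_CR10 and KRAB_no_gRNA, the order used below, against 29.6, 34.5 and 39.7 CPM in the libraries numbered 1 and 2 (lowest, median, highest of 10). CCNE1 was at 40.6, 41.3, 39.3, 34.1 and 46.5 CPM in number 3, against 50.7, 57.2 and 65.9 CPM. All 5 libraries numbered 3 lie below all 10 others for both genes. The log2 fold change was -0.72 ± 0.08 for CCNE2 (edgeR adjusted p = 1.55e-07) and -0.49 ± 0.07 for CCNE1 (edgeR adjusted p = 6.44e-06). Within the groups the log2 difference of CCNE2 lay between -0.86 and -0.57.

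PCNA, UHRF1, SLBP and MCM3 were also lower in number 3. PCNA was at 128, 157, 140, 133 and 140 CPM in number 3, against 171, 185 and 216 CPM in numbers 1 and 2 (-0.41 ± 0.06, edgeR adjusted p = 1.36e-05). UHRF1 was at 152, 165, 164, 131 and 157 CPM, against 163, 205 and 282 CPM (-0.44 ± 0.08, edgeR adjusted p = 0.000165). PCNA separates without overlap, while UHRF1 overlaps because of the low dCas9_CR10 library 2. SLBP, which binds the stem-loop of histone mRNA and peaks in S phase, was at 130, 135, 136, 122 and 148 CPM in number 3, against 152, 171 and 190 CPM (-0.34 ± 0.06, edgeR adjusted p = 5.15e-05). The helicase subunit MCM3 was at 288, 276, 297, 263 and 317 CPM in number 3, against 310, 368 and 421 CPM in numbers 1 and 2 (-0.33 ± 0.05, edgeR adjusted p = 3.18e-05). SLBP separates without overlap, and MCM3 overlaps through KRAB_no_gRNA library 3. The other helicase subunits had log2 fold changes from -0.33 for MCM6 to -0.15 for MCM7, and RRM2, TYMS and the licensing factor CDC6 had -0.33, -0.32 and -0.25. CDC6, like MCM2, MCM6, RRM2 and TYMS, had every number 3 library below all others, so that 9 of 18 S phase genes were separated downward, where 11.7% of all genes were.

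Not every S phase gene followed. CDT1, the licensing factor that is destroyed once replication begins, was at 325, 230, 244, 270 and 262 CPM in number 3, against 212, 233 and 288 CPM in numbers 1 and 2 (0.18 ± 0.07, edgeR adjusted p = 0.0297), and KRAB_CR4 library 3 is the high one. E2F1 (0.04 ± 0.08) and E2F2 (-0.10 ± 0.07) did not pass, with edgeR adjusted p of 0.687 and 0.271. GINS2 fell by 0.17 with an edgeR adjusted p of 0.0471, close to the threshold of 0.05. Leaving out each library in turn ended the call of CDT1 in 9 cases out of 15 and that of GINS2 in 6.

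Among the M phase genes the largest rise was that of CDC25C, at 29.8, 26.8, 24.9, 31.8 and 26.5 CPM in number 3, against 16.9, 18.02 and 21.8 CPM in numbers 1 and 2. Its log2 fold change was 0.61 ± 0.08 (edgeR adjusted p = 1.78e-06), and it is the M phase gene with every number 3 library above all others, where 9.12% of all genes were. CENPE was at 125, 128, 126, 144 and 119 CPM in number 3, against 64.6, 99.7 and 122 CPM (0.45 ± 0.08, edgeR adjusted p = 6.11e-05). The KRAB_no_gRNA library alone overlaps for CENPE. The kinase AURKB was at 73.5, 67.9, 62.0, 69.8 and 73.4 CPM in number 3, against 43.6, 53.0 and 68.0 CPM (0.37 ± 0.07, edgeR adjusted p = 0.000139), with dCas9_CR4 library 2 as the high one of the others. NUSAP1, which bundles spindle microtubules, was at 198, 196, 194, 206 and 181 CPM in number 3, against 146, 162 and 184 CPM (0.29 ± 0.06, edgeR adjusted p = 0.000298). CENPF was at 314, 328, 340, 346 and 295 CPM in number 3, against 190, 282 and 342 CPM (0.28 ± 0.07, edgeR adjusted p = 0.00136). Both overlap between the numbers, and in CENPF the spread of numbers 1 and 2 is the wider.

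MKI67 rose by a smaller margin, with 365, 392, 406, 361 and 352 CPM in number 3, against 191, 344 and 480 CPM in numbers 1 and 2 (0.26 ± 0.09, edgeR adjusted p = 0.0152). The number 3 libraries lie inside the range of the others. Its call was lost without KRAB_no_gRNA library 3 (0.20, edgeR adjusted p = 0.0885), without dCas9_CR4 library 3 (0.15, edgeR adjusted p = 0.148) and in a fit of the number alone (0.22, edgeR adjusted p = 0.12). The centromeric histone CENPA (0.23) and KIF20A (0.20) also rose. CCNB1, the main mitotic cyclin, fell to 182, 190, 194, 185 and 180 CPM in number 3, against 198, 208 and 223 CPM (-0.15 ± 0.05, edgeR adjusted p = 0.021), without overlap. BIRC5 fell by 0.25, the checkpoint kinase BUB1B by 0.22 and PLK1 by 0.16. With the length trend described below removed, BIRC5 was still called, while CCNB1, BUB1B and PLK1 were not, and CCNB1 and PLK1 also lost their calls without KRAB_no_gRNA library 3 or dCas9_CR10 library 3. CDK1 (0.03 ± 0.06), CCNB2 (0.03 ± 0.06), CDC20 (0.01 ± 0.06), TPX2 (-0.03 ± 0.06), AURKA (-0.03 ± 0.06) and CCNA2 (-0.07 ± 0.06) did not pass, and the 95% interval of CDK1 ran from -0.10 to 0.17.

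**Figure D4:**
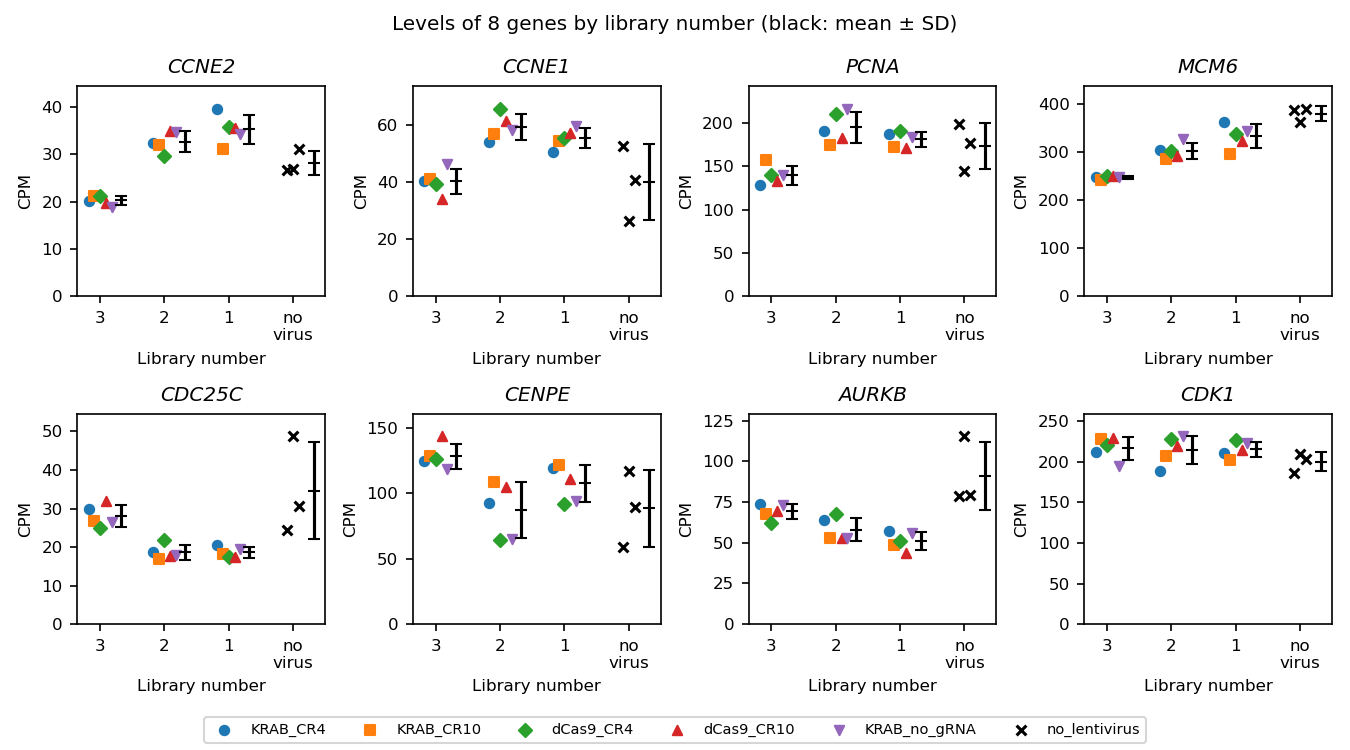
Level in CPM of 8 genes in the lentiviral libraries by library number (3, 2 and 1, a marker for each of 5 groups) and in the 3 no_lentivirus libraries, with mean ± SD in black; axes start at 0. Among the lentiviral libraries, CCNE2, CCNE1, PCNA and MCM6 are lowest in number 3, the means of CDC25C, CENPE and AURKB are highest there, and CDK1 overlaps between the numbers.

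The pattern was present within groups. For 14 of 18 S phase genes library 3 was the lowest of its group in all 5 lentiviral groups, which held for 18.3% of all genes. For 4 of 21 M phase genes, CDC25C, CENPE, KIF20A and NUSAP1, it was the highest in all 5, which held for 15.6% of all genes, and for 3, CCNB1, PLK1 and BIRC5, the lowest. Across the 15 lentiviral libraries the log2 levels of pairs of S phase genes had a median Pearson r of 0.74 over 153 pairs, pairs of M phase genes 0.12 over 210 pairs, and mixed pairs -0.02 over 378 pairs. With the means of each group and each number removed, these values were 0.23, 0.26 and 0.08. The points share libraries, groups and depth, and the values are descriptions.

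No single library decided the count of 28. In 15 fits that each left out 1 library the count ranged from 21, without dCas9_CR10 library 3, to 30, and 20 of the 28 members were called in every fit. Over all genes, 6641 of 14724 were called in the fit with 21 members and 8154 of 14771 in the fit with 30. The members called in every fit include the other 11 of the 12 genes given per library above for their size of change, MKI67 being the exception. Transcript length moved with the number: genes over 8 kb had a median log2 fold change of -0.12 and genes under 1 kb one of -0.01. With a length trend removed from each library, 23 members were called, of which 12 S phase genes were lower and 9 M phase genes higher. In that fit 8193 of 14599 genes were called. The median log2 fold change there was -0.21 for S phase genes and 0.07 for M phase genes. Ribosomal RNA was between 1.08% and 1.196% in the libraries numbered 3, within the range of the others.

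Regulators and partners of the members moved with library number 3 too, given as log2 fold changes, and several of the lists are near the background of 25.9% of all genes lower and 27.9% higher (36.7% and 22.3% at 10 CPM or more). Of 17 RB, E2F and DREAM regulators 10 were lower and 2 higher, including TFDP1, the partner of E2F proteins (-0.49), E2F3 (-0.47), E2F4 (-0.41) and the pocket protein RBL2 (0.47). Among 23 cyclins, kinases and inhibitors 7 were higher and 6 lower: CCNG2 was at 5.48 ± 1.52 CPM in number 3 and 1.55 ± 0.305 CPM in the others (1.83, edgeR adjusted p = 3.45e-08), CCNG1 rose by 0.77, CDK7 rose by 0.37 and CDC25A, the phosphatase that activates CDK2, fell by 0.66. Of 35 replication genes 13 were lower and 7 higher, with GINS3 (-0.57), ORC5 (-0.48), MCM10 (-0.40) and RPA1 (-0.39) first by p. Of 15 nucleotide supply genes 7 were lower and 2 higher, such as DTYMK (-0.49), UMPS (-0.47), CTPS1 (-0.38) and GART (-0.22). Of 30 spindle genes 7 were lower and 4 higher, with FBXO5, the inhibitor of the anaphase-promoting complex, at -0.66, KIF4A at -0.33, SPC24 at 0.73 and PTTG1 at 0.32. Of 17 genes of chromosome structure 8 were lower and 3 higher, with LMNB1 at -0.52, NCAPD3 at -0.33, CIT at 0.54 and HMGB2 at 0.35.

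Other marker genes moved as well, where 53.8% of all genes were called. Of 10 K562 markers 6 were lower in number 3 and 0 higher, among them the transferrin receptor TFRC (-0.57) and the erythroid factors TAL1 (-0.41) and KLF1 (-0.39). Of 6 tested markers of other cells 4 were higher and 0 lower, among them LYZ (0.95) and COL1A1 (0.86). Their part in the result was not tested.

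Numbers 2 and 1 differed much less. Of 39 members 2 passed in the 5 lentiviral libraries numbered 2 against the 5 numbered 1, both lower, where 1.04% of all 14599 genes passed and 0.863% were lower (edgeR quasi-likelihood, adjusted p under 0.05). MKI67 was at 363, 348, 231, 229 and 191 CPM in number 2, against 437, 480, 321, 376 and 339 CPM in number 1 of the same groups, and so lower in each of the 5 (-0.52 ± 0.10, edgeR adjusted p = 0.032). CENPF was at 269, 283, 190, 256 and 210 CPM in number 2, against 324, 342, 286, 314 and 281 CPM in number 1 (-0.35 ± 0.08, edgeR adjusted p = 0.0405). Both are lower in number 2 in all 5 groups, although their ranges overlap. CENPE (-0.30 ± 0.09) and BUB1B (-0.25 ± 0.08) were next, both with an edgeR adjusted p of 0.0829. BUB1B separates without overlap, where 2.71% of all genes were lower in this way.

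Transcript length moves with that difference. The transcripts of MKI67, CENPF and CENPE are 12056, 10307 and 8612 bases long, and they are the members over 8 kb. Over all genes, those over 8 kb had a median log2 fold change of -0.20 and 11.8% of them were called lower, against 0.21 and 0% in genes under 1 kb. With the length trend removed, 0 members were called, the value of MKI67 was -0.31 and that of CENPF -0.15 (edgeR adjusted p = 0.146 and 0.299). The calls also depended on single libraries. The count was 0 without dCas9_CR4 library 1 or 2 or dCas9_CR10 library 1 or 2, 1 without KRAB_no_gRNA library 1 or 3, dCas9_CR10 library 3 or KRAB_CR10 library 3, and 4 without KRAB_CR4 library 1.

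**Figure D5:**
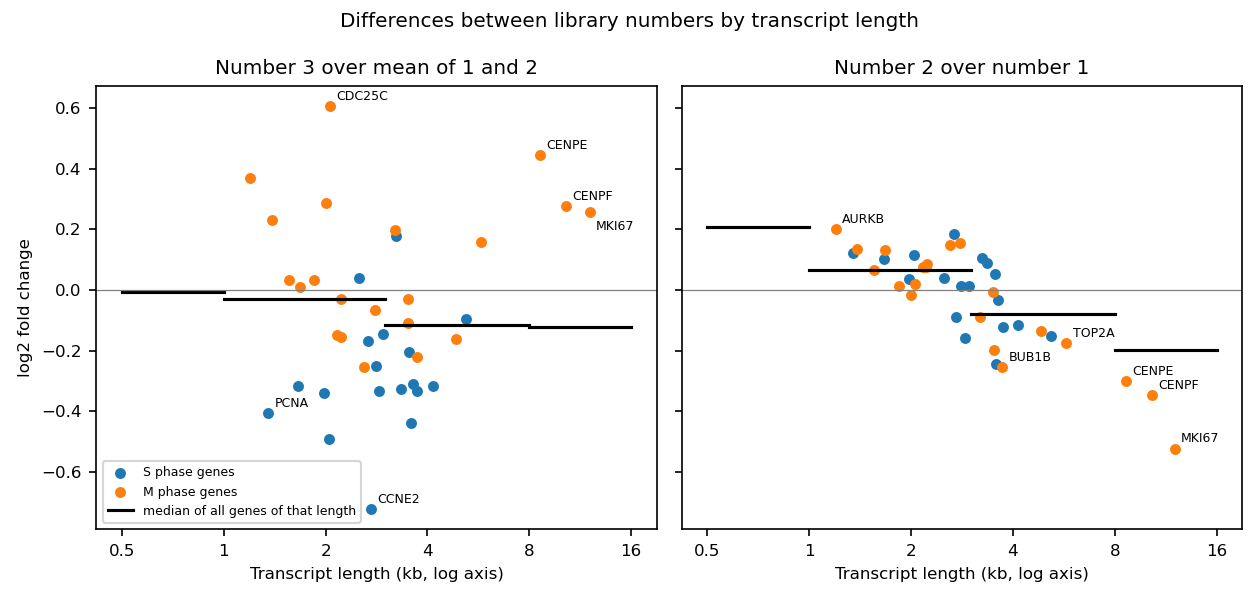
Log2 fold change of each member against its transcript length in kb (log axis), for number 3 over the mean of 1 and 2 (left) and number 2 over number 1 (right), with the median of all genes of each length class as a black bar. On the right the 3 longest members lie lowest, down to MKI67 at -0.52, and on the left MKI67, CENPF and CENPE lie above the bar for genes over 8 kb at -0.12.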

How the data were processed

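Polyadenylated RNA of 18 K562 libraries was made into double-stranded cDNA, cut and tagged by a transposase and sequenced, per the labels' protocols. The authors deposited raw counts, 1 file a library with 40709 RefSeq accessions. The build hg19 and the tools DESeq, R 3.1.2, Picard, SAMtools and Bowtie2 are listed, per the submitters' processing notes, but what each did and the counting tool are not given in the sources used here. All deposited counts were even (0 odd values), as where the 2 mates of a fragment are both counted. Accessions were summed to 24394 genes with RefSeq (39320) and GENCODE (521) tables, and 868 kept their own name; names covered 99.02% of counts. Lengths came from GENCODE transcripts for 92.7% of tested genes.

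Counts were filtered with filterByExpr (14713 genes in 18 libraries, 14599 in 15), normalized by TMM and analysed with the quasi-likelihood test of edgeR 4.0.16 in R 4.3.3, Benjamini-Hochberg over all genes, threshold 0.05. Groups were compared in 1 fit of 6 group means (12 residual degrees of freedom). Numbers were compared in the 15 lentiviral libraries with group and number as terms (8 residual degrees of freedom). The biological coefficient of variation was 21.6% and 10.5%. Standard errors come from the test statistic, and 95% intervals use the residual degrees of freedom. CPM values are TMM-scaled. Intervals cover library spread and counting error only, without molecular identifiers. The script was tested on simulated data. Promoters and chromosomes come from RefSeq GRCh38.p14 and are not in the files' build.

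Over 9304 genes, deviations from group means correlated above 0.1 in 30 of 30 same-numbered lentiviral pairs (0.17 to 0.90), in 16 of 60 different-numbered pairs (-0.80 to 0.67), and in 5 of 15 same-numbered pairs with an untransduced library. The number was therefore read as pairing the lentiviral libraries only. Genes named are all members that passed where 8 or fewer did, otherwise the 6 largest rises and falls, or the 3 smallest p where none passed, and up to 4 a pathway list by p; other members are named with their values to complete a list. The members, lists and promoters were chosen with earlier results of these data known. Alternatives were DESeq2 1.42.0, other scaling and filters, halved counts, fewer libraries, the number as a block and, chosen after seeing the data, removal of a length trend (lowess), of the libraries richest in ribosomal RNA, and the lentiviral libraries alone.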

Additional observations from a re-analysis of the deposited data

How the results depend on the processing

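The 6 comparisons among lentiviral groups kept a count of 0 members under every alternative run, including the replicate block and DESeq2, and the 28 members of library number 3 stayed between 21 and 30. KRAB_no_gRNA against no_lentivirus, with 0 members, had 1 with DESeq2 size factors, with a mean of at least 50 counts and with halved counts, 4 with DESeq2, 3 with lentiviral libraries numbered 1 and 2, 3 with the length trend removed, and 0 to 5 when 1 library was left out. Apart from the fits without 1 library, these fits called between 985 and 2008 of all genes, against 976 in the reported fit. In the fit with the replicate block on all 18 libraries KRAB_no_gRNA against no_lentivirus had 7 members and the lentiviral groups against no_lentivirus had 13, against 8 without the block. Over all genes, 2621 and 4196 of 14713 were called there, but the number does not pair the untransduced libraries. The 8 members became 1 without the 2 libraries richest in ribosomal RNA and 0 to 11 without 1 library. The 2 members of number 2 against number 1 became 5 without a filter, 4 with DESeq2, 0 with the number alone, 0 with the length trend removed and 0 to 4 without 1 library. Over all genes, 864 of 19637 were called without a filter and 889 of 14599 with DESeq2. The E2F2 log2 fold change, KRAB_CR10 against dCas9_CR10, ran from -0.2429 to 0.0321 when 1 library was left out, the positive value without dCas9_CR10 library 1. The causes were not tested. A fit of only the groups compared is the same as the one reported for the lentiviral groups against no_lentivirus and was not run there. Among single genes, 811 values kept their side of the threshold, 66 lost their call and 14 gained one. With 3 libraries a group, small changes of these genes are not detectable.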
